A study of Mus musculus with 36 samples.

Results

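Ribosomal protein genes encode the protein part of the cytosolic ribosome, and their transcripts were followed here in cultured mouse nephron progenitor cells (NPCs) exposed to different levels of Wnt-pathway activation. Genes were taken by symbol (Rpl, Rps or Rplp followed by a number, and Rpsa, with the Rps6k kinases left out) when they were protein-coding and averaged at least 100 normalized counts over the 9 wild-type libraries. Of 83 matching symbols, 77 genes met the rule, among 25760 genes with a row in the wild-type table. They were 31 genes of the small (40S) subunit, 43 of the large (60S) subunit and 3 of the P-stalk, Rplp0, Rplp1 and Rplp2. Of the 6 symbols left out, Rpl32l, Rpl6l and Rps4l were not annotated as protein-coding, Rpl10l and Rpl39l had no row in the wild-type table, and Rpl3l averaged 0.996 counts. The member nearest to the minimum was Rps10, at 250.6 counts, so the threshold fell in an empty stretch between Rpl3l and Rps10.

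Each ribosome carries a single copy of most of these proteins, so cells make them in matched amounts. Much of that matching occurs in translation, because ribosomal protein transcripts start with a run of pyrimidines, the 5′ terminal oligopyrimidine or TOP motif, through which mTOR and Larp1 set how much of the mRNA is translated. Myc family factors raise transcription of ribosomal protein and ribosome assembly genes in many cell types, and Myc is a textbook target of β-catenin. Translation was not measured here, and the counts describe mRNA alone.

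NPCs were isolated from kidneys of mouse embryos (E16.5) by depletion of other cells and grown in nephron progenitor expansion medium. CHIR99021 (CHIR), an inhibitor of GSK3β that stabilises β-catenin, was given at 0 (no CHIR), 1.25 µM (low CHIR, which maintains progenitors) or 5 µM (high CHIR, which induces them). Wild-type NPCs came from Swiss Webster mice and had 3 libraries at each level. In the β-catenin removal experiment each group had 2 libraries. NPCs with β-catenin c/c conditional alleles received Cre mRNA or were Cre-negative controls, and Cas9-eGFP NPCs received Ctnnb1 sgRNAs or a control sgRNA against GFP, all in low and high CHIR. In the Tcf/Lef experiment, Cas9-eGFP NPCs received sgRNAs against Tcf7, Tcf7l1, Tcf7l2 and Lef1 together (quadruple knockout, QKO) or the GFP sgRNA, with 3 libraries per group but 2 for QKO in low CHIR. Transfected cells also received mCherry mRNA and were sorted on it, so both arms of each removal comparison had been transfected and sorted, whereas wild-type cells had not. The labels do not say whether replicates of a group came from separate litters, and p-values then measure only the spread between these libraries.

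Reads on genes ranged from 13089780 to 76071568 per library. Ctnnb1 counts were 1652 and 1039.6 with Ctnnb1 sgRNAs against 2521 and 3397 with GFP sgRNA in low CHIR, and 1629.9 and 1270.1 against 2632 and 2701 in high CHIR. In Cre-treated NPCs they were 3085 and 2451 against 3880.1 and 3097 in low CHIR and 2254 and 2583 against 2423 and 2207 in high CHIR; the count covers the whole gene, so loss of some exons need not lower it and the value does not check the removal. Lef1 counts were 255, 441 and 513 in QKO against 1504, 2743 and 1144 in its high CHIR controls. In the low CHIR controls Lef1 stood at 120, 25.7 and 19.9. In high CHIR, Tcf7 had 110, 180 and 127 in QKO against 534, 535 and 268. Tcf7l1 had 602, 539 and 736 against 612, 486 and 591, and Tcf7l2 999, 1616 and 1481 against 1263, 2233 and 1750. Counts over a whole gene do not check the removal here either. The progenitor marker Six2 was present in every library, at 2716, 2979 and 3072 in wild-type low CHIR and 60.5, 79.6 and 65.4 in wild-type high CHIR. Stromal markers held at most 0.189% of the counts of any library and ureteric markers at most 0.0401%. Endothelial markers held at most 0.0136% and blood markers at most 0.0164%. Stromal markers moved with CHIR, from 0.0971 to 0.123% in wild-type low CHIR to 0.0214 to 0.0593% in high CHIR, and their part in the values below was not tested. In bulk RNA, fewer cells of a type and less RNA per cell cannot be told apart.

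Start-site sequence is what sets this family apart in control of translation, so the first bases of 8 members are shown. RefSeq gave promoters on GRCm38.p6 for 57 of the 77 genes, and each line below holds 30 bases, from 15 before to 15 from the annotated start. Capitals mark the longest run of at least 5 bases that are each C or T and that begins with C, wherever it lies in the window. The Rps27l run ends before the annotated start, so by this annotation it is not in the transcript. The Rpl13a run begins after the annotated start. The first 4 show the typical run, and the last 4 are members whose counts strayed from the rest of the family in some comparison below.
Rps6 (chr4:86857353-86857382, minus strand): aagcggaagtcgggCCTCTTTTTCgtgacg
Rpl28 (chr7:4792950-4792979, plus strand): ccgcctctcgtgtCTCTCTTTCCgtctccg
Rps18 (chr17:33955651-33955680, minus strand): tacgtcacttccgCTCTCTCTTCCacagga
Rpl35 (chr2:39005117-39005146, minus strand): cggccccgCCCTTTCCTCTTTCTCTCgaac
Rpl13a (chr7:45128731-45128760, minus strand): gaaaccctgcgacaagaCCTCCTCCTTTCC
Rps10 (chr17:27635230-27635259, minus strand): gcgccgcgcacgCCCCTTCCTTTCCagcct
Rps25 (chr9:44407699-44407728, plus strand): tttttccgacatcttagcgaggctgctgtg
Rps27l (chr9:66946071-66946100, plus strand): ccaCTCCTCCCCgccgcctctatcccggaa

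A run was found at the start of 38 of 57 members (66.7%) against 40.3% of all 27025 genes with a promoter entry. By the rule that a run begins with C, none lay in the Rps25 window. That window opens with a stretch of C and T bases that begins with T, and the bases before it are not shown. The longest run shown, 18 bases, was that of Rpl35. In the full windows of 300 bases, read on both strands, the Ets-type motif CCGGAAG was found in 24 of 57 members (42.1%) and in 9.93% of all genes, and the E-box CACGTG bound by Myc in 6 (10.5% against 8.09%). TATAAA was found in 6 members (10.5% against 15.7%). The Tcf/Lef motifs ATCAAAG and TTCAAAG were found in 0 of 57 members, against 4.29% and 5.93% of all genes. A match in these letters is a description and does not show binding.

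The 77 transcripts together made up a large part of every library, and 23 of them were among the 100 most abundant rows of the wild-type table. Per kb of exon, the highest was Rplp0, which forms the base of the P-stalk where translation factors dock, at 29328 normalized counts per kb, followed by Rpl32 at 29010.1 and Rpl36 at 28960.1. The median member stood at 8142 counts per kb and the middle of the family, from the lower to the upper quartile, spanned 2.93-fold. Rps6, the 40S protein phosphorylated by S6 kinases, stood at rank 10 (18329 per kb), Rpl3, near the peptidyl transferase centre, at rank 17 (14918 per kb) and Rpsa, the laminin receptor precursor that is also a 40S protein, at rank 21 (11948 per kb). Rps27l, a variant of Rps27, stood at rank 52 (5710 per kb). The lowest were Rpl13a (783 per kb), Rpl24 (410.2 per kb) and Rps10 (108 per kb).

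**Figure D1:**
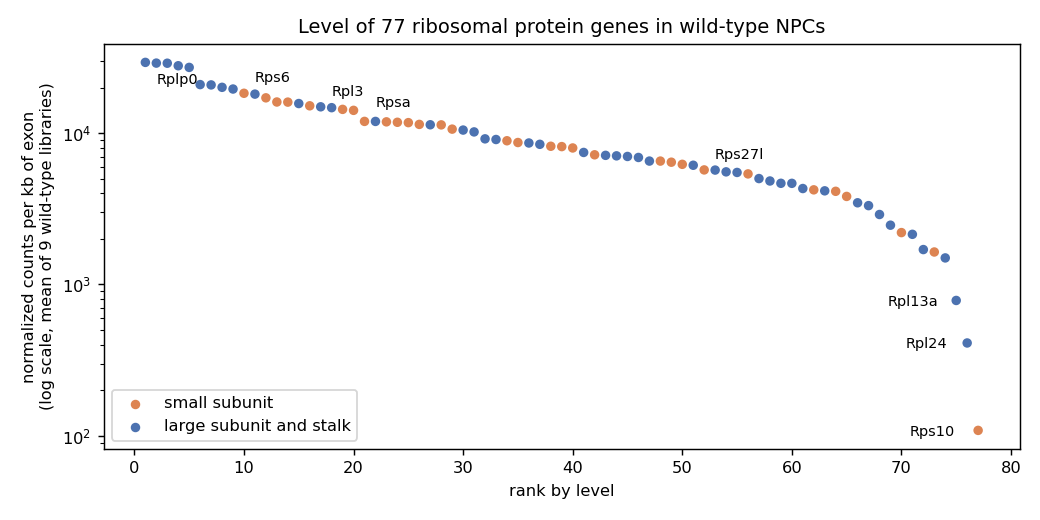
Level of each of the 77 ribosomal protein genes in wild-type NPCs, as mean normalized counts per kb of exon over 9 libraries (log scale), ordered by rank. The length used is that of all annotated exons of a gene together, so the order depends on the annotation. Rplp0 leads at 29328 per kb, the levels decline smoothly through the median of 8142 per kb, and Rpl13a, Rpl24 and Rps10 sit apart at the low end.

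Low counts such as those of Rps10 have to be read beside copies of the genes elsewhere in the genome. The deposited counts used uniquely aligned reads, and ribosomal protein genes have many processed pseudogenes that share their sequence. A total of 233 rows of the wild-type table were named as processed copies of members, and 58 of 77 members had at least 1. Rpl24 had 0, and Rpl13a had 1, with 731 counts beside 1656 on the gene. In 7 members the named copies together held more counts than the gene in wild-type NPCs. Rps10 was the most extreme case, with 250.6 counts on the gene and 4928 on 4 named copies, 3354 of them on Rps10-ps2. Rps2, a 40S protein near the mRNA channel, had 13151 counts on the gene and 38203 on 10 copies, and Rpl35a had 5276 on the gene and 22490.2 on 6 copies. In the Tcf/Lef experiment the copies also exceeded Rps6 (22945 on the gene and 25643.5 on copies) and Rpl3 (39366 and 42208), among others. Levels of these genes are therefore uncertain, and the comparisons were repeated with the named copies added to each member. With copies added, 0 of 77 members passed the test in each of the 14 comparisons, by limma.

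The family moved from library to library as a unit. In wild-type NPCs its share of all normalized counts was 5.75, 6.88 and 6.18% in no CHIR, 6.43, 7.45 and 6.19% in low CHIR and 6.43, 6.86 and 7.4% in high CHIR, and the 3 groups overlapped. In the Tcf/Lef experiment it lay between 5.78 and 6.79%. In the β-catenin removal experiment the share was higher and more spread. It was 11.4 and 7.91% in Cre controls and 9.45 and 6.66% after Cre in low CHIR, and 10.6 and 7.38% and 10.3 and 7.69% in high CHIR. It was 9.19 and 7.1% with GFP sgRNA and 8.12 and 7.32% with Ctnnb1 sgRNAs in low CHIR, and 10.4 and 9.88% and 10.4 and 8.74% in high CHIR. Replicate 1 exceeded replicate 2 in all 8 groups of this experiment. The 3 tables were normalized separately, so shares are compared within a table.

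**Figure D2:**
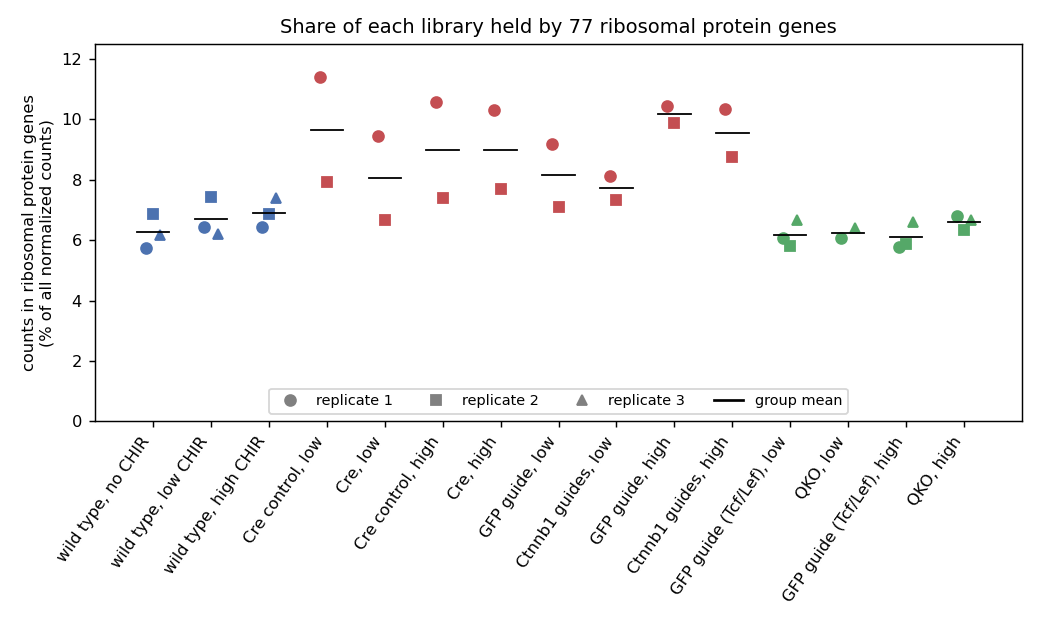
Counts in the 77 ribosomal protein genes as a percent of all normalized counts of a library, for 36 libraries in 15 groups. Points are libraries, with a symbol for each replicate number, and bars are group means; wild-type libraries lie between 5.75 and 7.45%, β-catenin removal libraries between 6.66 and 11.4%, and Tcf/Lef libraries between 5.78 and 6.79%.

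The highest library of all was replicate 1 of the Cre controls in low CHIR, with 11.4% of its counts in the family. In this library 76 of 77 members were above their mean over the 16 libraries of the experiment, by a median of 0.52 on the log2 scale, and its mitochondrially encoded share was the lowest of the experiment, 0.49%. At the other end, replicate 2 after Cre in low CHIR had 2 of 77 members above their mean and a median of -0.44. In wild-type NPCs, replicate 1 of no CHIR, the deepest library, had 0 of 77 members above their mean (median -0.28), while replicate 3 of high CHIR and replicate 2 of low CHIR each had 76 (medians 0.28 and 0.20). Between replicates of a group, the SD of a member's log2 value had a median of 0.19 in wild-type NPCs, 0.32 in the β-catenin removal experiment and 0.15 in the Tcf/Lef experiment, against 0.33, 0.31 and 0.29 for all genes tested. After the members' median was taken off each library, the same SDs were 0.079, 0.109 and 0.0697.

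**Figure D3:**
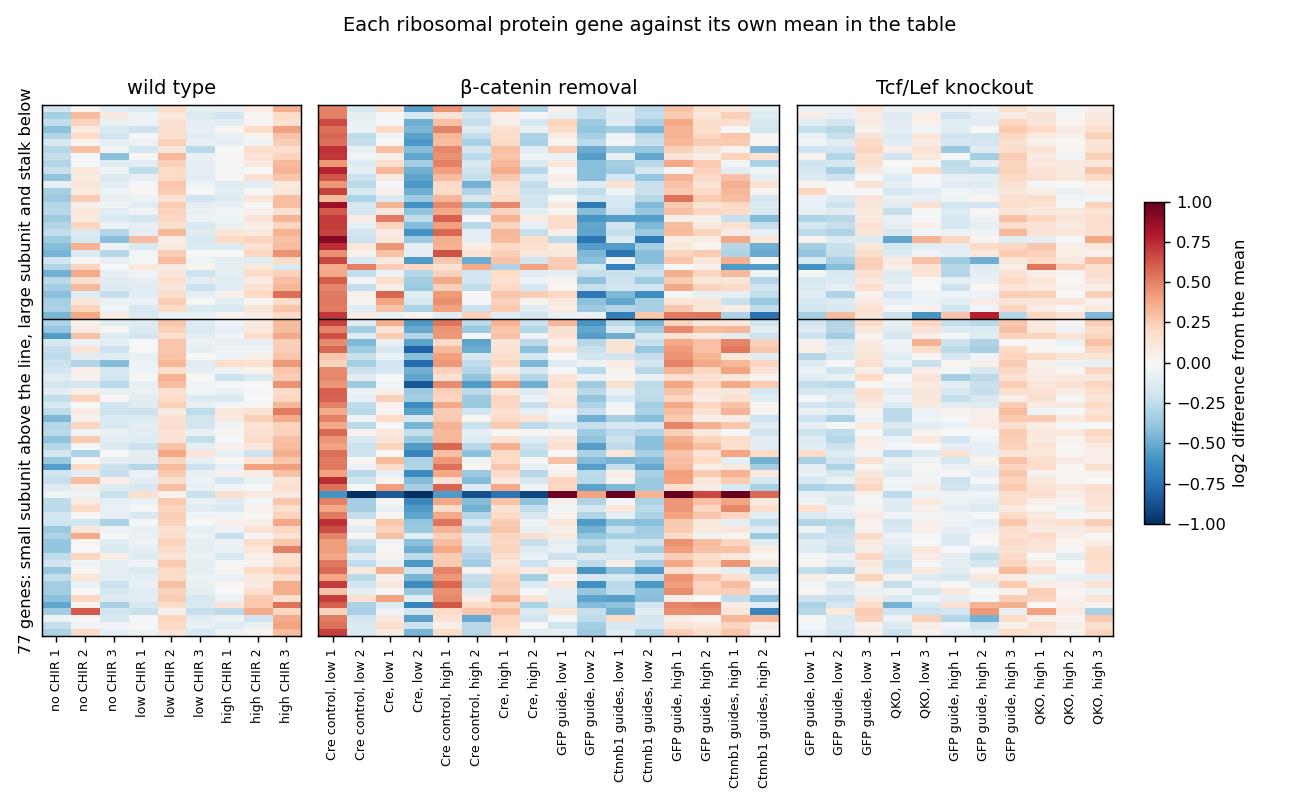
Each row is 1 of the 77 genes, each column 1 library, and colour gives the log2 value minus the gene's mean over its table (red higher, blue lower, scale from -1 to 1). Whole columns share a colour, as in replicate 1 of the Cre controls in low CHIR where 76 of 77 genes were above their mean. The row of Rpl29 stands out in β-catenin removal, blue in the Cre and red in the Cas9-eGFP libraries.

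The first comparison asked what inducing levels of CHIR did to ribosomal protein transcripts in wild-type NPCs. Of the family, 0 of 77 members passed limma at an adjusted p of 0.05 in high against low CHIR, whereas 10.6% of the 17411 genes tested did. The unadjusted p was below 0.05 in 1 member, and edgeR and DESeq2 also called 0 members, with 1 member each below an unadjusted p of 0.05. The members' median log2 fold change was 0.11 (all genes 0.00937), the fitted value was above 0 in 65 of 77, and the extremes were -0.15 for Rpl7 and 0.39 for Rpl10. The median was 0.01 without replicate 3 of high CHIR and 0.20 without replicate 2 of low CHIR. Small-subunit genes had a median of 0.12 and the others one of 0.10. A member of median spread would have needed a change of 0.54 to be called, and in 77 of 77 the 95% confidence interval lay within a doubling or a halving of the level.

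Rps6 had 26141, 32736 and 26934 normalized counts in low CHIR and 27244, 30510.3 and 36964 in high CHIR (log2 fold change 0.14 ± 0.15 (SE), limma adjusted p = 0.617). The groups overlapped, with replicate 3 of high CHIR the highest of all. Rplp0 had 47627, 56095 and 44887 in low and 46499.6, 42023 and 62441 in high CHIR (0.01 ± 0.16, adjusted p = 0.981), the flattest of the members always described. Rpl10, which sits at the joining face of the 60S subunit and is needed for the final step of its maturation, had 18206, 22509 and 17728 in low and 22841, 23376 and 30373 in high CHIR. It had the smallest p of the family (0.39 ± 0.16, unadjusted p = 0.0333, limma adjusted p = 0.157), and its groups did not overlap. Rps10 was the other member with groups apart, at 223, 235 and 236 in low and 251, 259.6 and 284 in high CHIR (0.19 ± 0.22, adjusted p = 0.65). Groups lay apart with high CHIR above in 2 of 77 members and in 14.8% of all genes tested, and with high CHIR below in 0 members and 16% of all genes. Rpl13a, a 60S protein also known for a role outside the ribosome in interferon-treated cells, had 1432, 1843 and 1467 and 1771, 1947 and 2361 (0.36 ± 0.18, adjusted p = 0.253).

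Withdrawal of CHIR likewise left the family below the threshold. In no against low CHIR, 0 of 77 members passed limma, against 5.04% of 17411 genes; 4 were below an unadjusted p of 0.05, and edgeR and DESeq2 called 0 (2 and 4 unadjusted). The members' median was -0.11 and 66 of 77 were fitted below 0, against the same low CHIR libraries as in the comparison above. The median was -0.20 without replicate 2 of no CHIR and -0.01 without replicate 2 of low CHIR. Rps2 showed the smallest p, with 10089.9, 11455 and 9679 in no CHIR and 16073, 13596 and 11653 in low CHIR (-0.40 ± 0.14, unadjusted p = 0.015, adjusted p = 0.121). Its groups did not overlap, and with its 10 copies added the difference was -0.43 (adjusted p = 0.106). Rps25, a 40S protein linked to initiation at internal ribosome entry sites, had 12282, 15449 and 13972 against 16636, 20252 and 16942 (-0.37 ± 0.15, adjusted p = 0.18). Groups also lay apart for Rpl3, at 41275, 41710.0 and 38859 against 44120.0, 57846 and 45347 (-0.26 ± 0.16, adjusted p = 0.362). The other members with groups apart were Rpl4, Rpl5, Rpl6, Rpl14, Rps3 and Rps12, so that 9 of 77 lay wholly lower in no CHIR, against 16.8% of all genes. Rpsa, at 31915, 37109.7 and 27984 against 37338, 47196 and 35786 (-0.31 ± 0.15, adjusted p = 0.258), overlapped. Rps27l had 3762, 5375 and 4648, 4974, 4939 and 4725 and 4347, 4998 and 4168 in no, low and high CHIR, and the groups overlapped.

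**Figure D4:**
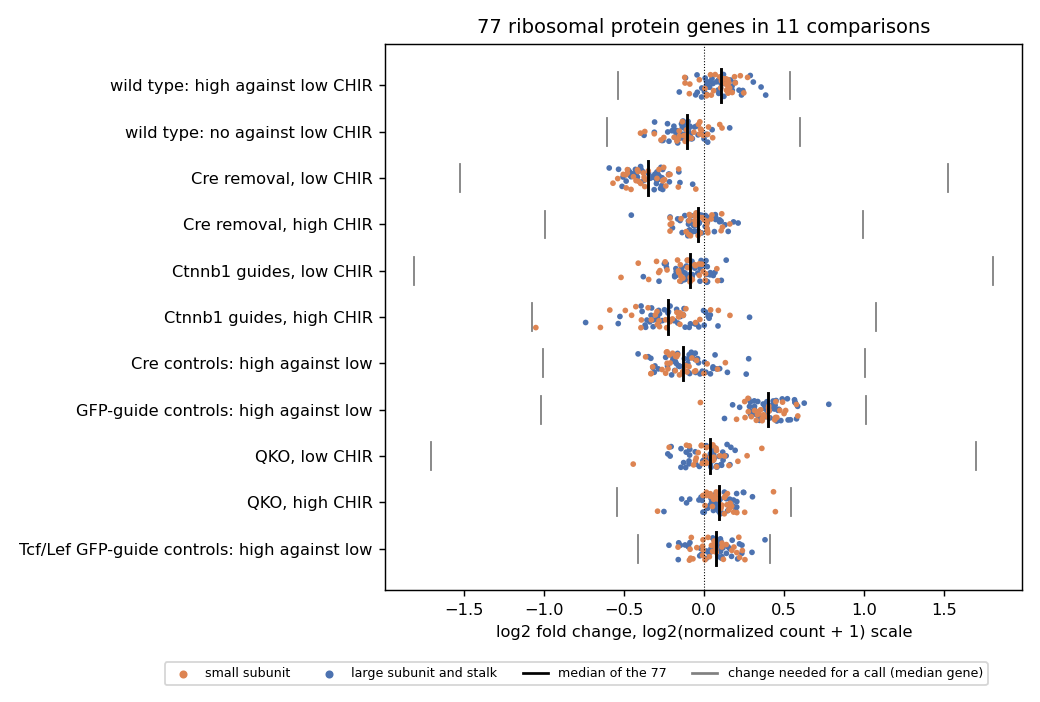
Log2 fold change of each of the 77 genes in 11 comparisons, on the log2(normalized count + 1) scale, with small-subunit genes in orange and the others in blue. Black bars are the members' medians, from -0.35 after Cre in low CHIR to 0.40 in GFP-guide controls, and grey bars mark the change a member of median spread needed to be called at an adjusted p of 0.05, which no point passed by its own spread.

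Removal of β-catenin by Cre was compared with Cre controls. In low CHIR, 0 of 77 members passed limma and 0.328% of 16780 genes did; 0 members were below an unadjusted p of 0.05, edgeR called 0 (0 unadjusted) and DESeq2 0 (1 unadjusted). All 77 fitted differences were below 0, with a median of -0.35 (all genes -0.00682) and the smallest difference, -0.05, in Rps12. The size of this shift depended on which Cre control was left out. Without replicate 1 of the controls the median was -0.00206, and without replicate 2 it was -0.69. The family's share was higher in replicate 1 than in replicate 2 in both arms. Leaving out 1 control therefore also brings that difference into the median. Rps6 had 47993 and 28929.8 after Cre and 59377 and 37836 in controls (-0.35 ± 0.33, adjusted p = 0.763), and Rpsa had 46040.2 and 30757 against 72188 and 43064 (-0.57 ± 0.32, adjusted p = 0.57). In both genes the higher value after Cre exceeded the lower control. Groups lay apart in 2 of 77 members, Rps10 and Rps27l, both lower after Cre, against 18.2% of all genes. A change of 1.52 was needed for a call at median spread. Mitochondrially encoded transcripts held 2.48 and 1.93% of counts after Cre and 0.49 and 1.99% in controls, and their part in the shift was not tested.

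In high CHIR, where Cre removal of β-catenin changed 8.65% of genes tested, 0 of 77 members passed limma, 0 were below an unadjusted p of 0.05, and the median was -0.04 with 28 of 77 fitted above 0. It was 0.26 without replicate 1 and -0.33 without replicate 2 of the controls. Rps6 had 52708 and 34442 after Cre against 57522 and 33758 (-0.05 ± 0.33, adjusted p = 0.958), and Rpl3 95850.0 and 50811 against 98728 and 48076 (0.02 ± 0.42, adjusted p = 0.989). In these genes the 2 replicates of a group differed by far more than the groups did. Rpl13a lay farthest below the family, at 2589.8 and 1776 against 3416 and 2524 (-0.45 ± 0.28, adjusted p = 0.413), and Rplp1, a P-stalk protein that recruits translation factors, lay farthest above (0.21 ± 0.23, adjusted p = 0.654). Groups lay apart in 1 of 77 members, Rps10, lower after Cre, against 23.1% of all genes. Count models were not run here because 1 library of these groups had no reads recovered for them.

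Removal of β-catenin with Ctnnb1 sgRNAs gave the same count in low CHIR, 0 of 77 members by limma, with 0.0536% of genes called and 1 member below an unadjusted p of 0.05. That member was Rps27l, at 2189 and 2898 with Ctnnb1 sgRNAs and 4194 and 3098 with GFP sgRNA (-0.52 ± 0.22, unadjusted p = 0.0366, adjusted p = 1). Its groups did not overlap, lower with Ctnnb1 sgRNAs as in 14% of all genes, and those of Rplp1 lay apart the other way, as in 16.1%. The family median was -0.09, and it was 0.11 without replicate 1 and -0.29 without replicate 2 of the GFP sgRNA group.

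The members came nearest to the threshold with Ctnnb1 sgRNAs in high CHIR. Again 0 of 77 passed limma, against 5.09% of genes, but 4 were below an unadjusted p of 0.05, all lower after β-catenin removal. Rps10 had 114 and 84.5 with Ctnnb1 sgRNAs and 204 and 205 with GFP sgRNA (-1.05 ± 0.33, adjusted p = 0.0847). Rpl24, a 60S protein at the subunit interface, had 415 and 243 against 529.8 and 531 (-0.74 ± 0.28, adjusted p = 0.153). These genes are the lowest of the family by level. Rps25 had 15830.5 and 13846 against 22842 and 23492 (-0.65 ± 0.25, adjusted p = 0.161), and Rps27l 2361 and 2366 against 3480.0 and 3624 (-0.59 ± 0.22, adjusted p = 0.159). The GFP sgRNA libraries of each gene lay close together and above both Ctnnb1 sgRNA libraries.

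Calls among these genes depended on the fit. With only the groups compared in the fit, limma called Rpl13a, Rps25, Rps27l and Rps10, all lower (4.97% of genes called lower). DESeq2 on recovered reads called Rps27l alone (log2 fold change -0.59, adjusted p = 0.0327, 3.3% of genes called lower), with 5 members below an unadjusted p of 0.05, and edgeR called 0, with 4. With copies added to each member Rps25 had the smallest adjusted p, 0.118. Across the family the median was -0.22 (-0.37 without replicate 1 and -0.07 without replicate 2 of the Ctnnb1 sgRNA group), with 67 of 77 fitted below 0, and groups lay apart with Ctnnb1 sgRNAs lower in 38 of 77 members, against 31.2% of all genes. Rplp0 went the other way, at 86264 and 85873 against 71649 and 69615 (0.29 ± 0.32, adjusted p = 0.678), and with Rps2 and Rpsa it made 3 members whose groups lay apart with Ctnnb1 sgRNAs higher, against 30.1% of all genes. Among processed copies of the family, 7 of 203 tested fell and 0 rose, where 1.64% of all genes fell.

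**Figure D5:**
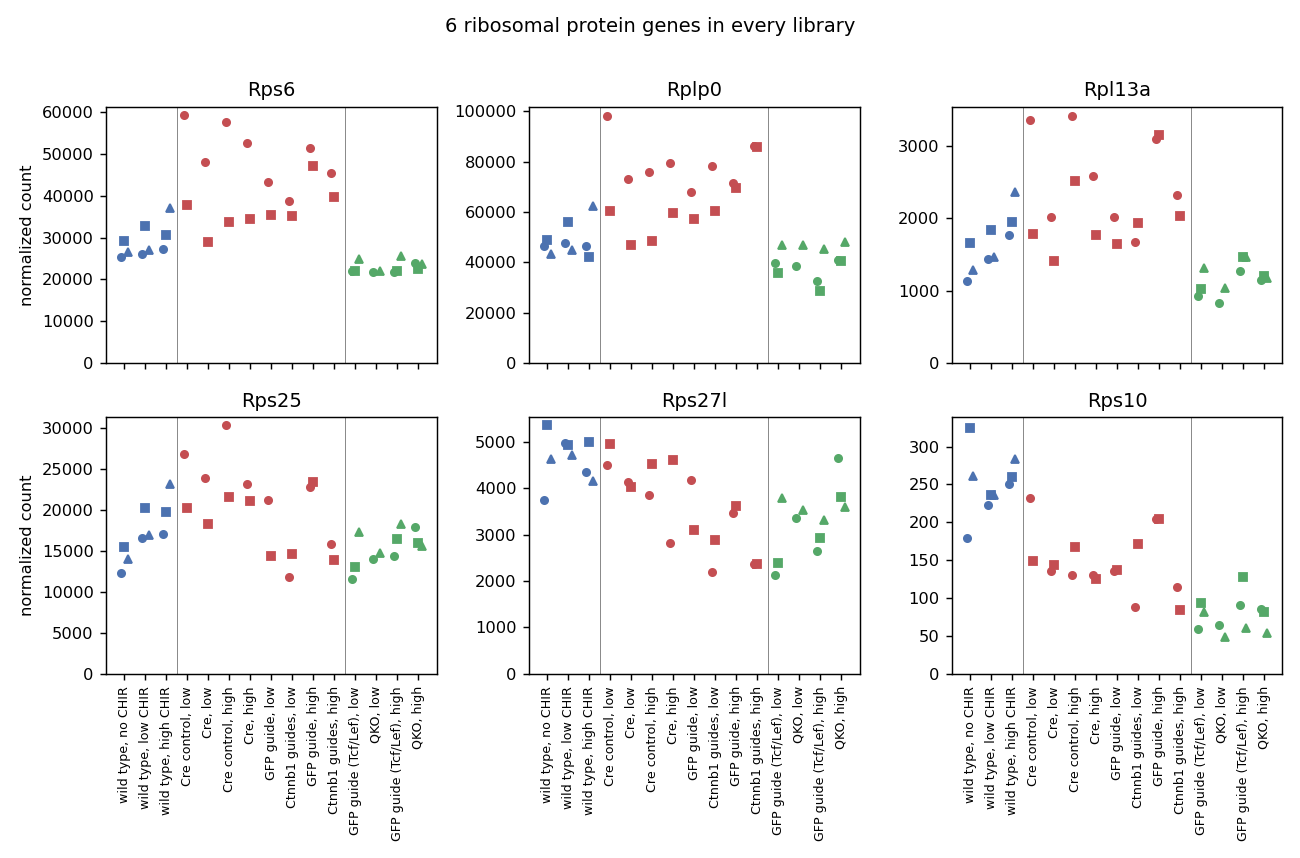
Normalized counts of 6 ribosomal protein genes in each of 36 libraries, with the 15 groups along the axis, grey lines between the 3 separately normalized tables, and a symbol for each replicate number (circle 1, square 2, triangle 3). In the Cre groups replicate 1 of Rps6 lies above replicate 2 each time, and Rps25, Rps27l and Rps10 are lower with Ctnnb1 sgRNAs than with GFP sgRNA in high CHIR, where Rplp0 is higher.

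In control cells that kept β-catenin, the members' medians for high against low CHIR were -0.13 in the Cre set and 0.40 in the GFP sgRNA set. The sign in the Cre set turned when 1 library was left out, so none is read from it. The difference between the sets was not tested. In Cre controls, high against low CHIR called 0 of 77 members by limma (0 unadjusted; edgeR 0 and DESeq2 0, each with 0 unadjusted) and 8.06% of genes. The groups lay apart in 0 of 77 members, against 47.1% of all genes. The family median was -0.13, and it was 0.22 without replicate 1 of the low CHIR controls and -0.49 without replicate 2. In GFP sgRNA controls of the β-catenin experiment, 0 of 77 members passed (4 unadjusted), against 7.51% of genes, but the median was 0.40 (all genes -0.00472) and 76 of 77 were fitted above 0, the exception being Rps27l at -0.02. The groups lay apart with high CHIR above in 58 of 77 members, against 29.3% of all genes. Rpl13a had 3105 and 3158 in high and 2026 and 1641 in low CHIR (0.78 ± 0.28, adjusted p = 0.129). Rpl23 had 33417 and 30514 against 21069.7 and 20299 (0.63 ± 0.28, adjusted p = 0.213), and Rps6 had 51293 and 47074 against 43339.5 and 35375 (0.33 ± 0.33, adjusted p = 0.617). With only these groups in the fit, limma called Rpl13a and Rpl23, both higher, with 4.37% of genes called higher. More members, all higher, were called with the replicate number as a block, as given in the closing section. With 2 replicates the numbers do not establish a pairing. The median was 0.18 without replicate 2 of the low CHIR group and 0.61 without replicate 1. Mitochondrially encoded transcripts held 2.44 and 0.78% of counts in the low and 0.659 and 0.829% in the high CHIR libraries, and their part in the shift was not tested. The low and high CHIR controls are the same libraries as in the removal comparisons above.

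In GFP sgRNA controls of the Tcf/Lef experiment, where CHIR changed 15.6% of 15878 genes, the most of any comparison, 0 of 77 members passed limma and 2 were below an unadjusted p of 0.05. The median was 0.08, with 55 of 77 fitted above 0, and a change of 0.41 was needed at median spread. The median was -0.01 without replicate 3 of high CHIR and 0.16 without replicate 3 of low CHIR. Rpl13a had 926, 1023 and 1309.7 in low and 1277, 1461 and 1473 in high CHIR (0.38 ± 0.15, adjusted p = 0.111), and Rpl38, a 60S protein whose loss alters Hox mRNA translation in mouse embryos, had 4241, 3939 and 4764 and 4884, 5156 and 5906 (0.30 ± 0.12, adjusted p = 0.119). With the replicate number as a block, since same-numbered libraries of this experiment varied together, 3 members were called higher, Rpl13a, Rpl27 and Rpl38 (log2 fold changes 0.38, 0.24 and 0.30), as 11.7% of genes were. The groups of Rpl38 were the only ones apart, as in 14.1% of all genes with high CHIR above. Without replicate 3 of the low CHIR group, Rpl13a and Rps25 were called higher, as were 9.99% of genes.

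Loss of all 4 Tcf/Lef factors was compared with the GFP sgRNA. In low CHIR, 0 of 77 members passed limma (0 unadjusted; edgeR 0 and DESeq2 0, each with 0 unadjusted), and 0.0063% of 15878 genes did, which was 1 gene. The median was 0.04 (all genes 0.0385), and -0.04 without replicate 3 and 0.10 without replicate 1 of QKO. Rps6 had 21869 and 22049.9 in QKO and 21977, 22051 and 24975 in controls (-0.06 ± 0.12, adjusted p = 0.938), a difference whose 95% confidence interval ran from -0.32 to 0.19. Groups lay apart in 3 members, Rps15, Rpl7a and Rpl23, all lower in QKO, against 6.25% of all genes.

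In high CHIR, QKO changed 2.56% of genes and 0 of 77 members by limma, with 2 below an unadjusted p of 0.05. The median was 0.09 (0.04 without replicate 1 and 0.19 without replicate 3 of the controls), 67 of 77 were fitted above 0, and in 77 of 77 the 95% interval lay within a doubling or a halving. Rps19, the 40S protein most often mutated in Diamond-Blackfan anaemia, had 35015, 32858 and 37799.6 in QKO and 23824, 21749 and 33163 in controls (0.45 ± 0.18, adjusted p = 0.265), and the groups overlapped. With the replicate block it was the 1 member called (adjusted p = 0.0147, 5.61% of genes called higher), log2 fold change 0.45. Rps27l, whose human counterpart is known as a p53 target, had 4656, 3824 and 3597 in QKO and 2656, 2936 and 3325 in controls (0.43 ± 0.19, adjusted p = 0.336). Its groups did not overlap. Of a list of 12 other p53 targets 7 rose and 0 fell in the same comparison, where 2.56% of all genes were called in either direction. Cdkn1a was among those that rose (1.82 ± 0.33, limma adjusted p = 0.0136), and leaving out any 1 library left 1 to 5 of them called. Whether p53 had a part in the Rps27l values was not tested. In the Tcf/Lef controls 5 of the 12 listed p53 targets fell in high against low CHIR. In that comparison 15.6% of all genes were called in either direction and 7.36% were called higher. Cdkn1a counts in the low CHIR controls were 1201, 1178 and 3442, highest in replicate 3. Rpl13a was lower in QKO with groups apart, at 1149.9, 1210.1 and 1175 against 1277, 1461 and 1473 (-0.25 ± 0.15, adjusted p = 0.493). Groups lay apart with QKO lower in this member, against 8.8% of all genes, and with QKO higher in Rplp1 and Rps27l, against 11.1%.

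Whether the CHIR response itself changed with each removal was tested as an interaction. For Cre, 0.995% of genes and 0 of 77 members passed (limma, 0 unadjusted), with a members' median of 0.32. It became -0.03 without replicate 1 and 0.65 without replicate 2 of the low CHIR controls. For Ctnnb1 sgRNAs the shares were 0.518% and 0 of 77 (0 unadjusted), with a median of -0.11 that ran from -0.34 without replicate 1 to 0.09 without replicate 2 of the low CHIR controls, and Rps10 had the lowest value (-0.90 ± 0.46, adjusted p = 0.77). For QKO they were 0.126% and 0 of 77 (0 unadjusted), with a median of 0.07 that was -0.02 without replicate 3 of the low CHIR controls and 0.16 without replicate 3 of the high CHIR controls. Intervals were wide for the first pair: 22 members after Cre and 32 with Ctnnb1 sgRNAs had 95% intervals within a doubling or a halving, against 75 of 77 for QKO.

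A single member divided the β-catenin removal experiment by the cells used rather than by treatment, a pattern chosen after its values were seen. Rpl29 (GRCm38 chr9:106429454-106431568, plus strand), a small 60S protein that is dispensable for viability in mice, had 16048 and 10781 with GFP sgRNA and 16708 and 10371 with Ctnnb1 sgRNAs in low CHIR, and 20733 and 12940.4 and 19745 and 12098 in high CHIR. In the Cre experiment it had 5401 and 4034 in controls and 4564 and 3883 after Cre in low CHIR, and 5499 and 4424 and 4932 and 4318 in high CHIR. The lowest of 8 Cas9-eGFP libraries, 10371, was above the highest of 8 β-catenin c/c libraries, 5499, and the mean log2 values differed by 1.65, while the members' median difference was -0.06. Rpl29 was the 1 member of 77 for which the sets lay apart. Among all genes the Cas9-eGFP libraries lay wholly higher in 0.971% and wholly lower in 0.387%. The count of members apart was thus near the share over all genes. Within the Cas9-eGFP set, replicate 1 of each group was above every replicate 2. Its 2 named copies held 506 to 941 counts in the Cas9-eGFP libraries and 765 to 1206 in the others. In the Tcf/Lef experiment, also made in Cas9-eGFP cells, Rpl29 stood between 5816 and 7856, and in wild-type NPCs between 5458 and 7161, though in tables normalized separately. Genotype, strain background and preparation cannot be told apart here.

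Other genes of ribosome production gave a frame for these values. Of 68 ribosome assembly and rRNA synthesis factors, 15 fell and 0 rose in no against low CHIR, where 2.65% of all genes fell and the members' median was -0.11. Imp3, a component of the small-subunit processome, had 701, 300.1 and 664 in no CHIR and 1104, 1333 and 1064 in low CHIR (-1.16 ± 0.29, limma adjusted p = 0.0485). Mybbp1a, a nucleolar protein, had 2919, 1566 and 2311 against 4192, 4607 and 4431 (-1.01 ± 0.22, adjusted p = 0.0312), and Gar1, an H/ACA snoRNP protein, 878, 872 and 973 against 1753, 1595 and 1441 (-0.81 ± 0.13, adjusted p = 0.0107). In each of these genes all 3 no CHIR libraries lay below all 3 low CHIR libraries. The count was sensitive to single libraries: it was 17 without replicate 1 of no CHIR, 2 without replicate 2 and 0 without replicate 3, and 0 without replicate 1 or 2 and 3 without replicate 3 of low CHIR; edgeR called 14 and DESeq2 24, all lower. In high against low CHIR 1 of 68 rose and 1 fell in wild-type NPCs, 1 rose in Cre controls (beside 2.81% of all genes), 5 in GFP sgRNA controls (beside 2.98%) and 8 in the Tcf/Lef controls (beside 7.36%), among them Pno1 (0.71) and Riok2 (0.71), both of which act on the maturing 40S subunit. Those last counts ran from 0 to 1 when any 1 library of the GFP sgRNA controls was left out, and from 0 to 23 in the Tcf/Lef controls.

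Mycn, the Myc family member typical of embryonic progenitors, fell in wild-type NPCs in both no and high CHIR against low CHIR. It had 565, 656 and 544 in no CHIR, 2137, 2127 and 1940.2 in low CHIR and 398, 412 and 754 in high CHIR, with log2 fold changes of -1.82 ± 0.23 and -2.05 ± 0.23 (adjusted p = 0.00362 and 0.000378). In high against low CHIR of the control sets it did not pass: 846 and 606 against 867 and 575 in Cre controls (0.02 ± 0.30, adjusted p = 0.979), 997 and 1341 against 844 and 595 in GFP sgRNA controls (0.71 ± 0.30, 0.192) and 656, 482 and 486 against 748, 689.9 and 571 in Tcf/Lef controls (-0.31 ± 0.19, 0.305). It also fell after Cre in low CHIR (199 and 145 against 867 and 575, -2.05 ± 0.30, limma adjusted p = 0.00741). Mycn counts after Cre in high CHIR were 172 and 172 against 846 and 606 in controls. With Ctnnb1 sgRNAs they were 535 and 319 against 844 and 595 in low CHIR. In high CHIR they were 517 and 525 with Ctnnb1 sgRNAs against 997 and 1341. Myc rose in no CHIR (2538, 1771 and 2165 against 1097, 947 and 1055, 1.05 ± 0.20, adjusted p = 0.0191) and after β-catenin removal in high CHIR by both methods (Cre 1.43 ± 0.30, Ctnnb1 sgRNAs 1.28 ± 0.30). In each of these comparisons 0 of 77 ribosomal protein genes passed. A member of median spread needed a log2 change of 0.41 to 1.81 for a call in them, so smaller changes could not be called. Whether the members followed Mycn or Myc was not tested.

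Among 9 ribosomal genes outside the symbol rule, such as Fau and Rack1, 1 was called in any of the 11 comparisons between groups. This was Rpl22l1, the paralog of Rpl22, which had 674, 865 and 896 in low and 1103, 1396 and 1377 in high CHIR in the Tcf/Lef controls (0.67 ± 0.16, adjusted p = 0.0139). Of 17 translation factors and other genes with TOP mRNAs, Hnrnpa1 fell in no CHIR (-0.56 ± 0.12, adjusted p = 0.0353) and Npm1, a nucleolar chaperone, rose in the high CHIR Tcf/Lef controls (0.60 ± 0.15, adjusted p = 0.0179). The list's median was -0.35 after Cre in low CHIR and 0.30 in the GFP sgRNA controls, beside -0.35 and 0.40 for the members. The mitochondrial ribosome, with 77 genes tested, had medians of -0.35 and 0.17 there, and 0 and 1 of its genes were called.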

How the data were processed

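The authors prepared amplified cDNA libraries, aligned paired reads with STAR to a combined mouse and human genome (GRCm38 and GRCh38), counted uniquely aligned reads per gene with featureCounts and divided the counts by DESeq2 size factors. The deposited values used here are these normalized counts (signal), in 3 tables normalized separately. The strand setting is not given in the sources used here. Unique alignment leaves reads shared with processed pseudogenes uncounted or on the copy. Tables of the authors' own fold changes and p-values (8) and 50 columns of per-sample values were not used.

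Values were whole multiples of 1 step per library (100% of values within 0.1 reads), which gave the depths. Reads so recovered were used for count tests in 33 of 36 libraries; in the other 3 the step was close to 1 and they were left out. Genes averaging at least 10 normalized counts were tested with limma 3.58.1 (trend) on log2(value + 1) over all libraries of a table, with Benjamini-Hochberg adjustment over all genes tested. Confidence intervals are 95%. edgeR 4.0.16 (quasi-likelihood) and DESeq2 1.42.0 were run in R 4.3.3 on recovered reads where every library of the groups had them; edgeR called 997 genes higher and 886 lower in wild-type high against low CHIR. The scripts were tested on simulated data. Same-numbered libraries deviated together from their group means in the Tcf/Lef experiment (correlations over all genes 0.341 to 0.630 in controls across CHIR and 0.249 to 0.369 in QKO high CHIR), a pairing taken from the replicate numbers in the labels, and values with that block are given where they changed a call. Members named by rule were any called, the 3 farthest above and below the members' median in a comparison, Rplp0, Rps6, Rpl3, Rpsa and Rps27l, and the extremes of level; Rpl29 and members named for groups lying apart or copies were chosen after their values were seen. The members and gene lists were chosen with earlier results of these data known. Alternatives were another pseudocount, filter, scaling, count model, set of groups, replicate block and each library left out; adding named copies to members was chosen after seeing the data.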

Additional observations from a re-analysis of the deposited data

How the results depend on the processing

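The count of members called was 0 in each of the 14 comparisons, and 210 of 218 alternatives gave 0 as well. The exceptions were Ctnnb1 sgRNAs in high CHIR (3 lower with the replicate block, beside 842 of 16780 genes, 4 with only the groups compared, 1 by DESeq2), high against low CHIR in GFP sgRNA controls of the β-catenin experiment (22 higher with the replicate block, beside 1225 of 16780 genes, 2 with only the groups compared), QKO in high CHIR (1 with the block) and high against low CHIR in Tcf/Lef controls (3 with the block, and 0 to 2 when 1 library was left out). In the β-catenin experiment same-numbered libraries correlated at 0.196 to 0.491, but with 2 replicates the numbers do not establish a pairing, and in wild-type NPCs correlations ran from -0.016 to 0.177. The block changed no other call. Leaving out 1 library moved the members' median between -0.69 and -0.00206 after Cre in low CHIR, -0.33 and 0.26 after Cre in high CHIR and -0.49 and 0.22 across CHIR in Cre controls. The median changed sign in 13 alternatives, and no sign should be read from it in those comparisons. With 2 libraries a group, a member of median spread needed a log2 change of 0.99 to 1.81 for a call between groups in the fit over all libraries of the β-catenin experiment, and smaller changes were called with fewer groups, with the block or by DESeq2.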
